A study of Homo sapiens with 3 samples.

Results

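The MYC, MAX and MXD network comprises the transcription factors that compete for MAX and for the E-box sequence in DNA, and it was followed here in NCI-H23 cells after knockdown of USP16. NCI-H23 is a human lung adenocarcinoma line, and USP16 encodes a protease that takes ubiquitin off histone H2A. Members were the rows of the count tables whose gene name was MYC, MYCN, MYCL, MAX, MXD1, MXD3, MXD4, MXI1, MNT or MLX, which gave 10 genes of 50868. Libraries came from cells transfected with siRNA against USP16 (2 libraries, called knockdown libraries 1 and 2) or with control siRNA (1 library), all from the same line with no other treatment given in the labels. The labels do not say whether the knockdown libraries come from different siRNAs or from separate cultures, and the header of the second one carries the number 6 where its label has 2.

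MYC, MYCN and MYCL encode activators that bind DNA only as dimers with MAX. The MXD proteins and MNT also pair with MAX on E-boxes but recruit SIN3 and histone deacetylases, so they repress. MLX is a MAX-like protein that pairs with the glucose-responsive Mondo factors and with some of the MXD proteins and MNT. In growing cells MYC is generally the dominant activator, whereas MYCN is best known from neuroblastoma and MYCL from small cell lung cancer.

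The E-box that these dimers prefer, CACGTG, was searched in promoter windows running from 250 bases before to 50 bases after each RefSeq start (build GRCh38.p14). CACGTG reads the same on both strands. Promoters were found for 9 members, and MYC was not analysed here. The motif was present in 3 of the 9, namely MXD4, MNT and MLX. Of 27305 genes with a promoter given by RefSeq, 8.77% had it in at least 1. The sequences around the 3 matches are shown because CACGTG is what MYC-MAX and MXD-MAX dimers recognise, with the E-box in capitals. They lie at chr4:2262315-2262359 on the minus strand for MXD4, at chr17:2401221-2401280 on the minus strand for MNT, and at chr17:42567023-42567082 on the plus strand for MLX.
MXD4: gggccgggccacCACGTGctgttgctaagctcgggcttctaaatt
MNT: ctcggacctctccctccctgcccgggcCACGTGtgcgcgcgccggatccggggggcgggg
MLX: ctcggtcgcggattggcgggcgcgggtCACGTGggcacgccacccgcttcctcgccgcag
The E-box begins 238 bases before the start in MXD4, 193 bases before it in MNT and 50 bases before it in MLX. A match describes the letters of the window and was not measured as binding.

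The knockdown libraries held 13956382 and 15071179 counts and the control library 14007161. USP16 itself had 109 and 245 counts in the knockdown libraries and 632 in the control, or log2 changes of -2.60 and -1.58, so its level in knockdown library 2 was 2.05 times that in library 1 (exact binomial 95% interval 1.63 to 2.59). Its adjusted p over all genes was 0.561 (edgeR quasi-likelihood test) and ranged from 0.0188 to 0.869 over the alternatives. The epithelial keratins KRT8 and KRT18 and the mesenchymal filament gene VIM had at least 1118 counts in every library. The other epithelial markers were lower: KRT19 had 55 and 52 counts in the knockdown libraries and 62 in the control, EPCAM 161 and 232 against 38, and CDH1 39 and 93 against 142. So were the other mesenchymal markers. COL1A1 had 881 and 700 counts in the knockdown libraries and 918 in the control. CDH2 had 23 and 10 against 10, and PDGFRB 40 and 72 against 42. The lung lineage factor NKX2-1 had 4 and 10 counts in the knockdown libraries and 6 in the control, and the surfactant genes SFTPC and SFTPB had 0 counts throughout, so lung lineage markers were near 0 despite the tissue label. VIM had 19284 and 7957 counts in the knockdown libraries against 20066 in the control, which is one of the places where knockdown library 2 stood apart. Its part in the results below was not tested.

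All 10 members passed the filter on low counts, with 40 to 1049 counts per library, and 0 of them passed the test of both knockdown libraries against the control at an adjusted p of 0.05. The edgeR quasi-likelihood test called 0.0174% of the 17287 genes tested, DESeq2 called 0 members too, and 0 members had an unadjusted p under 0.05 with either tool. Below the control in both knockdown libraries were 6 members (MYCN, MYCL, MXD1, MXI1, MNT and MLX), where 33.5% of all genes tested were. MYC alone was above it in both, where 33.4% of all genes were, and MAX, MXD3 and MXD4 had opposite signs. The count of 6 depended on the scaling: with library totals alone it was 2, MYCN and MXI1, because MYCL, MXD1 and MNT moved above the control in knockdown library 2 (0.04, 0.07 and 0.11) and MLX in library 1 (0.02). No member was at least 2-fold higher or at least 2-fold lower in both libraries, where 3.75% and 1.68% of all genes were.

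**Figure D1:**
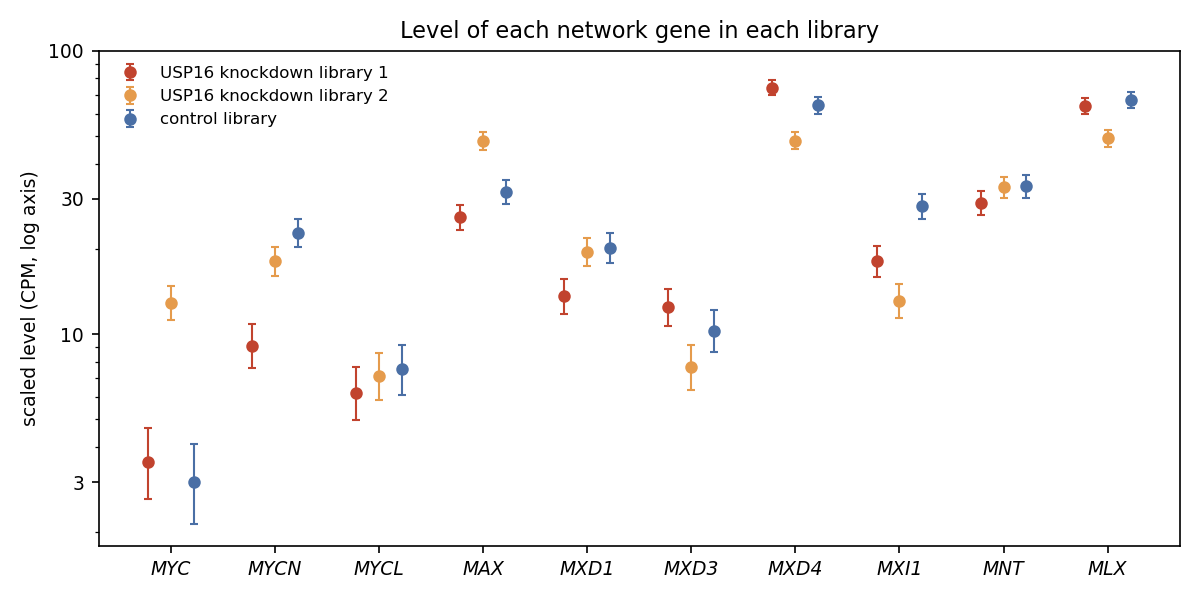
Level of each network gene in each library, in CPM, which are counts scaled to a common library size (log axis), with exact Poisson 95% intervals that cover counting error only. MYC stands higher in knockdown library 2 (12.9 CPM) than in knockdown library 1 (3.53 CPM) and the control (3.0 CPM), and MXI1 is lower in both knockdown libraries (18.1 and 13.1 CPM) than in the control (28.2 CPM).

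Among the activators, MYC had 50 counts in knockdown library 1, 201 in knockdown library 2 and 40 in the control. Only knockdown library 2 stood apart, at 4.30 times the control level (exact binomial 95% interval 3.05 to 6.20), while library 1 was at 1.17 times (0.759 to 1.83). In these bulk libraries, a different share of cells that express a gene and a different amount of its RNA per cell cannot be told apart. The log2 changes were 0.22 and 2.05, with a mean of 1.14 ± 1.3 (SD, n = 2), and the SD exceeds the mean. The fitted change was 1.45 with a standard error of 0.78 (edgeR, adjusted p = 0.999, and 0.844 to 1.00 over all fits with a test). In knockdown library 2, 282 of the genes tested, or 1.63%, had a log2 change at least as large. With library 2 left out, the mean change of MYC is the 0.22 of library 1.

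MYCN, on chromosome 2 at positions 15940564 to 15947007 (plus strand), had 129 and 281 counts in the knockdown libraries against 304 in the control. Both libraries were below the control, library 1 at 0.399 times its level (exact binomial 95% interval 0.322 to 0.491) and library 2 at 0.791 times (0.670 to 0.934). The log2 changes were -1.31 and -0.34, with a mean of -0.82 ± 0.69 (SD, n = 2), and the fitted change was -0.75 with a standard error of 0.53 (edgeR, adjusted p = 0.999). In knockdown library 1, 2.77% of the genes tested had a change as low or lower. MYCN shares 98 bases of exon with its antisense neighbour MYCNOS, which had 0 and 10 counts in the knockdown libraries and 0 in the control.

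MYCL, the third activator, had 88 and 111 counts in the knockdown libraries and 100 in the control. Its ratios of 0.827 and 0.950 had counting intervals that include 1 (0.614 to 1.11 and 0.719 to 1.26), so no difference was detectable at this depth. The 3 activators did not take the same side in either library. MYC was above the control and MYCN below it in both.

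MAX, the obligate partner of the activators and of most of the repressors, lies on chromosome 14 at positions 65006174 to 65102695 (minus strand) and had 366 and 745 counts in the knockdown libraries and 422 in the control. The knockdown libraries lay on opposite sides of the control. Library 1 was at 0.815 times its level (exact binomial 95% interval 0.706 to 0.939) and library 2 at 1.51 times (1.34 to 1.71), with log2 changes of -0.29 and 0.59 and a mean of 0.15 ± 0.63 (SD, n = 2; edgeR adjusted p = 0.999). Without knockdown library 2 the change of MAX has the other sign. On the opposite strand, MAX shares 184 bases of exon (4.15% of its exon length) with the antisense gene AL139022.1, which had 0 counts in every library, and none with FNTB, which had 313 and 304 counts in the knockdown libraries and 323 in the control.

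Of the repressors, MXI1, on chromosome 10 at positions 110207605 to 110287365 of hg38 (plus strand), was lower in both knockdown libraries. It had 256 and 204 counts in the knockdown libraries against 376 in the control. The libraries were at 0.640 times the control (exact binomial 95% interval 0.544 to 0.752) and 0.464 times (0.390 to 0.552). The log2 changes were -0.64 and -1.10, with a mean of -0.87 ± 0.32 (SD, n = 2). The fitted change was -0.86 with a standard error of 0.47 (edgeR, unadjusted p = 0.0909, adjusted p = 0.999, and 0.945 to 1.00 over all fits with a test). MXI1 and MYCN were the 2 members whose counting intervals lay on the same side of no change in both libraries. The share of all genes with such intervals was not computed, so this does not set the 2 apart from other genes.

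MXD1, a repressor known from differentiating cells, had 193 and 304 counts in the knockdown libraries and 269 in the control. Library 1 was at 0.674 times the control (exact binomial 95% interval 0.557 to 0.814), and library 2 was at 0.967 times, with an interval that includes 1 (0.818 to 1.14). It overlaps SNRNP27 on the same strand over 3.73% of its exon length, and SNRNP27 had 628 and 470 counts in the knockdown libraries and 904 in the control.

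MXD4 and MXD3 shared another pattern, above the control in knockdown library 1 and below it in library 2. MXD4 had 1049 and 750 counts in the knockdown libraries and 855 in the control, with ratios of 1.15 (exact binomial 95% interval 1.05 to 1.26) and 0.751 (0.680 to 0.829). MXD3 had 177 and 119 counts in the knockdown libraries and 137 in the control, with ratios of 1.21 (0.966 to 1.53) and 0.744 (0.577 to 0.958). The mean log2 changes of -0.10 ± 0.44 for MXD4 and -0.07 ± 0.49 for MXD3 (SD, n = 2) lie within their spread and turn positive with library totals alone, at 0.0033 and 0.034, and for MXD3 also with upper-quartile factors, at 0.0017. MXD3 shares 18.0% of its exon length with RAB24 on the same strand and 22.5% with PRELID1 on the opposite strand, so its reads are uncertain. RAB24 had 366 and 371 counts in the knockdown libraries and 271 in the control, and PRELID1 had 2482 and 2574 against 2142.

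MNT, the repressor that is present in most cell types, lay close to the control in both knockdown libraries. It had 411 and 512 counts in the knockdown libraries and 442 in the control. Its ratios were 0.873 (exact binomial 95% interval 0.762 to 1.00) and 0.992 (0.871 to 1.13), so no difference was detectable at this depth. Its mean log2 change of -0.10 ± 0.13 (SD, n = 2) turns to 0.0038 with library totals alone.

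MLX had 905 and 764 counts in the knockdown libraries and 895 in the control. Library 1 was level with the control at 0.950 times (exact binomial 95% interval 0.865 to 1.04), and library 2 was at 0.731 times (0.663 to 0.806). On the opposite strand MLX shares 18.1% of its exon length with PSMC3IP, which had 426 and 255 counts in the knockdown libraries and 297 in the control. The 3 members with a promoter E-box did not form a class by their values, since in knockdown library 2 MXD4 and MLX had log2 changes of -0.41 and -0.45 and MNT of -0.01, while in library 1 they had 0.20, -0.07 and -0.19 in the order MXD4, MLX and MNT.

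**Figure D2:**
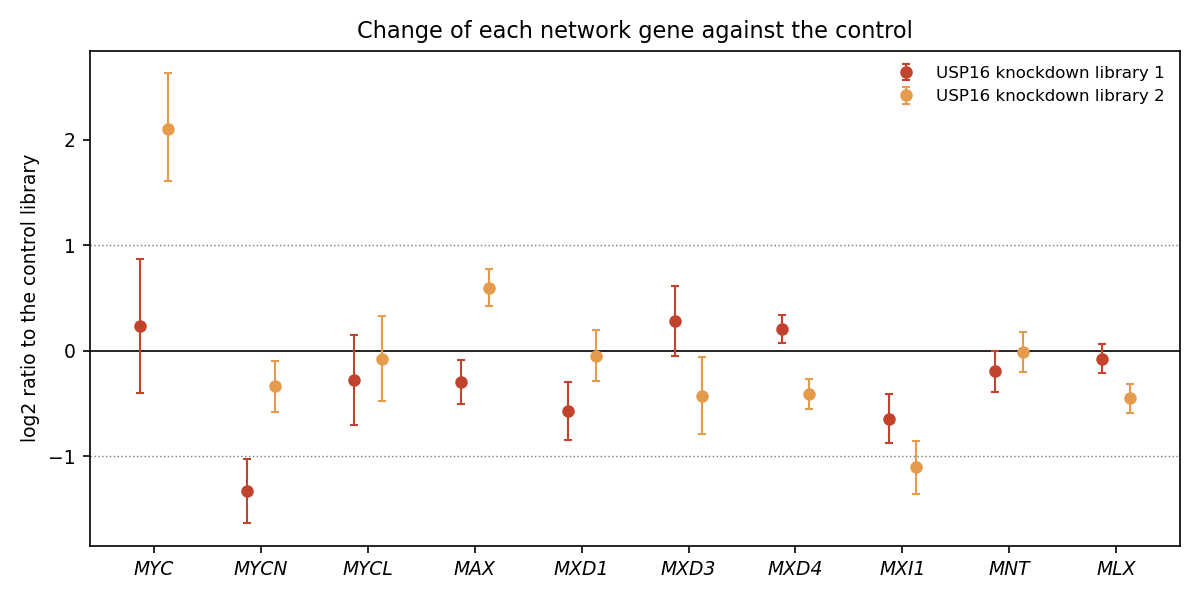
Log2 ratio of each knockdown library to the control for each network gene, with exact binomial 95% intervals that cover counting error only. Dotted lines mark a 2-fold difference. MYC in library 2 (ratio 4.30), MYCN in library 1 (0.399) and MXI1 in library 2 (0.464) lie beyond it, and no gene does so in both libraries.

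The knockdown libraries differed from each other beyond counting error at most of the network. The share of all genes with such a difference was not computed. The chi-square statistic between these libraries was 62.5 per degree of freedom over genes in general. That statistic grows with the counts and gives no share of genes. Whether such differences were particular to the network was therefore not tested. In knockdown library 2 the level of MYC was 3.66 times that in library 1 (exact binomial 95% interval 2.68 to 5.10), that of MYCN 1.99 times (1.61 to 2.46), that of MAX 1.85 times (1.63 to 2.11) and that of MXD1 1.44 times (1.19 to 1.73). The opposite held for MXD3 at 0.613 times (0.482 to 0.777), MXD4 at 0.652 times (0.592 to 0.716), MXI1 at 0.726 times (0.601 to 0.876) and MLX at 0.769 times (0.698 to 0.848). The activators with a difference and MAX were thus higher, and MXD3, MXD4, MXI1 and MLX lower, in knockdown library 2 than in library 1. The repressor MXD1 was on the side of the activators. This compares 1 library with 1 library, so it has no replicate check and was not tested. Over all genes tested 33.1% had opposite signs in the knockdown libraries, and 3 of the 10 members did.

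Levels were compared between genes as CPM per kilobase of exon, over all exons of each gene. MLX had the highest value in every library, at 15.0 and 11.5 CPM per kilobase in the knockdown libraries and 15.8 in the control, though in knockdown library 2 its interval overlapped that of MAX. With the length of the longest principal transcript, an alternative chosen after seeing the data, MAX (31.0) was above MLX (19.0) in knockdown library 2. By all exons MYC was the lowest in knockdown library 1 (1.18) and in the control (1.00), where its counting interval overlapped that of MYCL (1.23 in knockdown library 1 and 1.48 in the control). With principal transcript lengths MXD1 (2.44) was below MYC (2.58) in knockdown library 1. In knockdown library 2 MYC was, by all exons, at 4.31 CPM per kilobase and placed between MXD4 at 6.83 and MNT at 3.77, with an interval that overlapped that of MNT.

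The order of the other members was MXD4, MYCN, MAX, MXI1, MNT, MXD1 and MXD3 in the control, with 9.10, 8.78, 7.15, 6.13, 3.80, 3.18 and 2.00 CPM per kilobase. Counting intervals overlapped for 6 of the 9 pairs of neighbours in the control, among them MXD4 and MYCN, MYCN and MAX, and MAX and MXI1. In knockdown library 1 MXD4 (10.5) and MAX (5.83) followed MLX, ahead of MXI1 (3.92), MYCN (3.50) and MNT (3.32). In knockdown library 2 MAX (10.8) stood next to MLX, ahead of MYCN (6.94) and MXD4 (6.83). MAX thus ranked above MXD4 in knockdown library 2, whereas MXD4 ranked above MAX in the other libraries. With principal transcript lengths MAX was above MXD4 in the control too (20.5 against 15.8). The intervals of MYCN and MXD4 overlapped in knockdown library 2 and in the control.

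By all exons, MYCN was the most abundant activator in every library. Its level was 2.98 and 1.61 times that of MYC in the knockdown libraries and 8.77 times that of MYC in the control. MYC made up 19.9% and 34.0% of the summed level of the 3 activators in the knockdown libraries and 8.89% in the control. The lengths matter here. With the length of the longest principal transcript, the MYCN to MYC ratio was 1.35 and 0.733 in the knockdown libraries and 3.99 in the control. In knockdown library 2 the order of both genes thus turned round. This alternative shortens MYC from 3001 to 1365 bases, whereas MYCN keeps 2602. It also put MYCL (3.68) above MYCN (3.50) in knockdown library 1, so MYCN was the highest activator only in the control.

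Summed over genes, the activators were at 5.90 and 12.7 CPM per kilobase in the knockdown libraries and 11.3 in the control. The MXD genes and MNT together were at 22.3 and 18.0 in the knockdown libraries and 24.2 in the control. Both knockdown libraries were below the control for the repressors, but they lay on opposite sides of it for the activators. The ratio of repressor to activator level was 3.78 in knockdown library 1 and 1.42 in knockdown library 2, against 2.15 in the control. With principal transcript lengths these ratios were 4.34, 1.58 and 2.90. They are ratios of mRNA levels in single libraries and say nothing of protein.

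**Figure D3:**
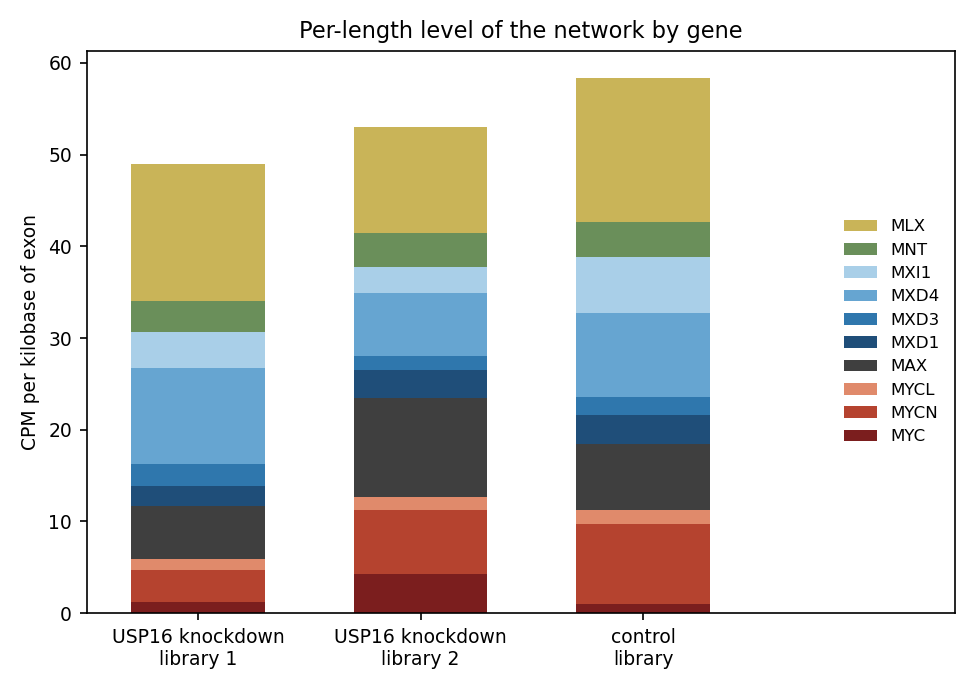
Stacked level of the network in each library, in CPM per kilobase of exon, with a colour for each gene (activators at the bottom, then MAX, the repressors and MLX). The activators sum to 5.90 in knockdown library 1, 12.7 in knockdown library 2 and 11.3 in the control, and the height of a bar is the sum of all 10 genes.

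Textbook MYC targets were examined as a list of 62 genes of nucleolar, metabolic and growth functions, all of which passed the filter. In both knockdown libraries 21 were above the control and 21 below it (33.9% each), close to the shares of all genes, and 20 had opposite signs. The list medians were 0.06 and -0.01, beside 0.00 and 0.00 over all genes tested. No target passed edgeR or DESeq2 over all genes, and 3 of the 62 had an unadjusted p under 0.05 with each tool. Of the 17287 genes tested, 4.88% had one with edgeR and 514 genes had one with DESeq2.

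The targets with the largest mean changes of 1 sign were NOLC1, RRS1, RCC1 and PAICS. NOLC1, a nucleolar chaperone, had 7576 and 7079 counts in the knockdown libraries and 2485 in the control, and its fitted change was not called (edgeR, adjusted p = 0.818). It was the 1 target at least 2-fold higher in both libraries. RCC1, the exchange factor for the GTPase Ran, had 2479 and 1826 counts in the knockdown libraries and 935 in the control (log2 1.31 and 0.74). PAICS, an enzyme of purine synthesis, had 2118 and 5288 counts in the knockdown libraries and 5856 in the control (-1.56 and -0.37). RRS1, a ribosome assembly factor, had 1286 and 289 counts in the knockdown libraries and 1213 in the control (-0.01 and -2.29). It was thus level with the control in library 1 and lower only in library 2. Whether the level of MYC bears on any of these targets was not tested.

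**Figure D4:**
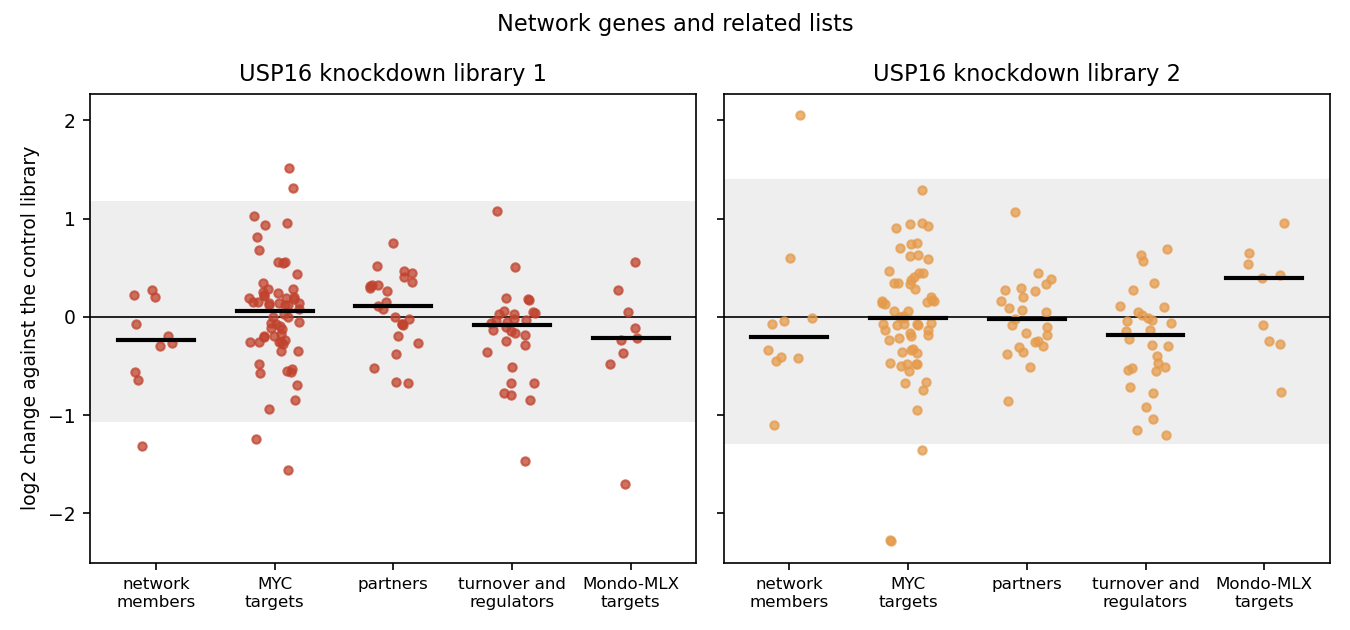
Log2 change of each gene against the control in knockdown library 1 (left) and knockdown library 2 (right), by gene list, with list medians as thick bars. The grey band holds the middle of all genes tested, from the 5th to the 95th percentile, and the thin line is their median. The medians of the MYC targets (0.06 and -0.01) lie at that line, and MYC is the point at 2.05 in library 2.

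Partners of the network were tested as 25 genes of cofactor and related E-box proteins. In both knockdown libraries 11 were above the control and 9 below it (44% and 36%, where all genes had 33.4% and 33.5%). Their medians were 0.11 and -0.03, and no gene passed the threshold. With edgeR 1 of the 25 had an unadjusted p under 0.05, where 4.88% of all genes had one, and 0 with DESeq2. HDAC1, a deacetylase of the SIN3 complex that the MXD proteins recruit, had 2841 and 3857 counts in the knockdown libraries and 1581 in the control (log2 0.75 and 1.06, edgeR adjusted p = 0.999). TRRAP, the scaffold through which MYC recruits histone acetyltransferases, was at -0.68 and -0.31. RUVBL2, an ATPase of chromatin complexes, was at 0.52 and 0.38, and PAF1, a subunit of an elongation complex, at 0.47 and 0.45.

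Genes that act on MYC stability, translation or transcription were a list of 30. Below the control in both libraries were 16, or 53.3% where all genes had 33.5%. Above it in both were 5, or 16.7% where all genes had 33.4%. These counts were not repeated with other scalings. With library totals alone, the counts below the control fell for the members and for the MYC targets. The medians were -0.08 and -0.19, and no gene passed. With edgeR 1 of the 30 had an unadjusted p under 0.05, where 4.88% of all genes had one, and 0 with DESeq2. AURKA, the mitotic kinase that shields MYCN from degradation, had 2439 and 2215 counts in the knockdown libraries and 3911 in the control (log2 -0.77 and -1.04). BTRC, an F-box protein of a ubiquitin ligase that acts on MYC, was at -0.67 and -1.15. CSNK2A1, a catalytic subunit of casein kinase 2, was at -1.47 and -0.29, and the ubiquitin ligase TRIM32 was at 1.08 and 0.63.

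Targets of the Mondo and MLX dimers, which respond to glucose, were 9 genes above the filter of 10. Their medians were -0.22 and 0.40. In both libraries 2 genes were above and 3 below the control (22.2% and 33.3%, where all genes had 33.4% and 33.5%). No gene passed (edgeR and DESeq2, 0 with an unadjusted p under 0.05). SCD, a fatty acid desaturase, had 10480 and 30900 counts in the knockdown libraries and 32049 in the control, and HK2, a hexokinase that is also a MYC target, had 856 and 1237 against 545. KLF10, a zinc finger factor, was at -0.24 and -0.76, and ACACA, which makes malonyl-CoA, at 0.05 and 0.42. TXNIP, the best known target of these dimers, had 16 and 35 counts in the knockdown libraries and 20 in the control.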

How the data were processed

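Messenger RNA libraries of NCI-H23 cells were used, 2 from cells given siRNA against USP16 and 1 from control cells, grouped by their titles and treatment label. Raw counts per gene were deposited, in whole numbers and with 1 library a file. Named in the submitters' processing notes, without a role, are hg38, HISAT2 2.0.4 and StringTie 1.3.0, and how reads were counted, whether by strand and on which annotation is not stated in the sources used here. Reads of overlapping or antisense genes therefore cannot be told apart.

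Genes were filtered with filterByExpr, which left 17287, scaled by trimmed means of M-values (factors 1.02 and 1.03 for the knockdown libraries and 0.952 for the control) and tested by quasi-likelihood (edgeR 4.0.16, R 4.3.3), with p-values adjusted after Benjamini and Hochberg over all genes. A lone control leaves 1 residual degree of freedom, so its spread was taken to equal that of the knockdown libraries. Since separate cultures are not stated, p-values reflect only how these libraries vary, perhaps technically. Log2 changes per library are on the log2 CPM scale with a prior count of 2, and the SD of their mean leaves out variation of the shared control. Intervals are at 95%, exact Poisson for a count and exact binomial for a ratio of counts, and cover counting error only. No libraries were identical, and the chi-square statistic between the knockdown libraries was 62.5 per degree of freedom. GENCODE 29, on the same build, matched 98.5% of gene identifiers and gave exon lengths. On simulated data with known changes, the check was on the sign of the mean log2 change. How often the test finds such changes is not given here, so a lack of calls does not show a lack of change.

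Members and gene lists were chosen with earlier results of these data known. Named genes were USP16, the members, up to 4 genes of each list with the largest mean change of 1 sign and a mean of at least 100 counts, the genes that overlap a member or adjoin MYC, and the 3 genes nearest to MYC. TXNIP and the genes used to check the cell type were named after their values were seen or as markers. Alternatives were no filter, a minimum mean of 100 counts, median-ratio, upper-quartile and total-count scaling, DESeq2 1.42.0, the larger prior count of 10, and each knockdown library left out in turn. The length of the principal transcript was added after seeing the data.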

Additional observations from a re-analysis of the deposited data

How the results depend on the processing

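Of the 10 members, 0 were called in any fit with a test, and MYC, MYCN, MYCL, MAX, MXD1, MXI1 and MLX kept the sign of their mean change in every fit of all 3 libraries. With library totals alone, which moves the median of all genes to 0.10 and 0.11, MNT turned to 0.0038, MXD3 to 0.034 and MXD4 to 0.0033. With upper-quartile factors MXD3 turned to 0.0017. Leaving out each knockdown library gave -0.29 to 0.59 for MAX, -0.42 to 0.28 for MXD3 and -0.41 to 0.20 for MXD4. The number of members below the control in both libraries was 2 with library totals alone, 3 with upper-quartile factors and 3 with a minimum mean of 100 counts, which removes MYC and MYCL and leaves 0 members above it in both. In single knockdown libraries 2 to 3 members were above the control and 7 to 8 below it. MYC targets below it in both were 11 with library totals alone, and in single libraries 30 to 32 were below and 30 to 32 above. Over all genes 70 were called with no filter on low counts, 13 with DESeq2, 9 with library totals alone and 1 with a minimum mean of 100 counts. Only in the fit with no filter was USP16 called, at a log2 change of -2.10 (edgeR, adjusted p = 0.0188). The causes were not tested. Without 1 knockdown library no residual degree of freedom remains, so those are values with no test. No paired analysis was possible because the control group has 1 library. Depth limits MYC most, since 40 counts in the control leave an interval of 2.15 to 4.09 CPM.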

Other observations

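Neighbours of MYC on chromosome 8 had unlike values. PVT1, the noncoding RNA gene beside MYC, had 789 and 1039 counts in the knockdown libraries and 1062 in the control (log2 changes of -0.52 and -0.26). FAM84B, a coding gene of the same region, had 111 and 197 counts in the knockdown libraries and 63 in the control (0.71 and 1.39), so like MYC it was above the control in both and higher in library 2. POU5F1B had 30 and 12 counts in the knockdown libraries and 5 in the control, and CCAT1 had 14 and 10 against 5, both above the control but higher in library 1. CASC11 had 2 and 5 counts in the knockdown libraries and 3 in the control, under the filter on low counts. None of the tested neighbours passed the test over all genes (edgeR). POU5F1B and CCAT1 were named after their values were seen.

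The genes most like MYC in their changes were CLDN16, MT1F and SLC4A5, by the distance between the pairs of log2 changes among 2714 coding genes within 2-fold of its mean count, over 3 libraries. CLDN16, a claudin of tight junctions, had 31 and 135 counts in the knockdown libraries and 22 in the control (distance 0.29). MT1F, a metallothionein with closely related copies, had 44 and 268 counts in the knockdown libraries and 43 in the control (distance 0.42). SLC4A5, a bicarbonate transporter, had 37 and 172 counts in the knockdown libraries and 39 in the control (distance 0.42). That all 3 stood apart in knockdown library 2 and not in library 1 follows from how they were chosen, and is no separate result.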
